A study of Mus musculus with 4 samples.

Results

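The 10 genes described here belong to Wnt signalling. The group holds 5 Wnt ligands (Wnt5a, Wnt5b, Wnt10a, Wnt10b and Wnt11) and 5 genes known as targets or feedback regulators of the pathway (Axin2, Lef1, Nkd1, Nkd2 and Notum). They were chosen by name among 22911 genes that could be named on the array, and the brightest of a gene's probes stood for it. Their RNA was measured in mouse PDL (periodontal ligament), which anchors the tooth root in its socket. The mice, wild type (WT) or lacking Mkx (Mkx-KO), the gene of the tendon and ligament transcription factor Mohawk, were 10 or 4 weeks old. Each of the 4 groups, formed by both genotypes at both ages, was hybridised to 1 one-colour array, and all arrays lay on 1 slide. The labels used here do not give the strain, the kind of knockout allele, or the number of mice behind a preparation. The values therefore describe 4 preparations, with no spread between animals.

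Wnt proteins are secreted, lipid-modified signals that bind Frizzled receptors. In the canonical branch, with Lrp5 or Lrp6 as co-receptor, they stop the destruction of beta-catenin, which then joins Tcf and Lef factors on target genes. Several of these targets encode inhibitors of the same pathway, so that their RNA is often read as a record of its activity. Wnt5a, Wnt5b and Wnt11 are best known for branches that do not use beta-catenin, whereas Wnt10a and Wnt10b act through it. Wnt10a is known in the tooth, where mutations of the human gene cause missing teeth.

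A level here is the log2 processed signal minus the array's own 75th percentile on that scale, and a difference is one such level minus another. The technical error given with a difference comes from the scanner software's error estimates for both spots and does not cover variation between mice. A difference was called when it was at least 2-fold and the probe was well above background on both arrays. Between 61.8% and 66.6% of spots per array were well above background, and none was saturated. All 17 probes of the 10 genes were well above background on every array. The local brightness of the array around these probes lay between -0.25 and 0.18 log2 units, and around the 10 that stood for a gene between -0.20 and 0.15.

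The tissue label was set against marker genes. All 10 markers of periodontal ligament, among them Postn, Scx and Tnmd, were well above background on every array, and their summed level (in multiples of the 75th percentile) lay between 1670 and 1720. A few bright genes such as Postn carry most of that sum, so it does not show an equal ligament share. Mkx-KO minus WT ranged over the 10 from -1.90 to 0.71 at 10 weeks (6 above 0, 4 below). At 4 weeks it ranged from -1.16 to 0.43 (5 above, 5 below). The 10 minus 4 week difference ran from -1.22 to 0.74 in WT (8 below 0). In Mkx-KO it ran from -0.93 to 0.42 (7 below 0). Markers of other cell types were also read, at unequal summed levels, and the brightest genes weigh most in each sum. Of the epithelial markers, 9 of 10 lay above 0 in Mkx-KO minus WT at 4 weeks, Cdh1 at 0.11 among them, and Epcam lay at -0.45. Epithelial markers, with all 10 well above background on each array, summed at 10 weeks to 843 (WT) and 460 (Mkx-KO), and at 4 weeks to 333 (WT) and 589 (Mkx-KO). Nasal markers summed to 896, 1470 and 230 on the first 3 of these arrays and to 1.99 in Mkx-KO at 4 weeks, where Cnga2 was not well above background. Skeletal muscle markers summed to between 68.0 and 118 on those 3 arrays and to 27.0 in Mkx-KO at 4 weeks. Markers of the B cell lineage, all 6 well above background on each array, summed at 10 weeks to 4.06 (WT) and 9.51 (Mkx-KO), and at 4 weeks to 8.65 (WT) and 12.3 (Mkx-KO). At 4 weeks 3 of them were higher in Mkx-KO and 3 lower, Vpreb1 (-1.78) and Igll1 (-2.23) among the lower. In such bulk tissue, fewer cells of a type and less RNA per cell cannot be told apart. The probe of Mkx itself was lower in the knockout, by -2.10 at 10 weeks and -1.65 at 4 weeks; where it lies relative to the deleted part was not used here.

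Upstream sequence was available in RefSeq (GRCm38.p6) for 7 of the 10 genes, with 13 start sites in all. Wnt5a, Wnt10a and Notum had no entry. Each window held the 250 bases before a start site, read 5′ to 3′ on the strand of the gene, and was searched on both strands for ATCAAAG and TTCAAAG, core letters bound by Tcf and Lef factors. Windows of the first listed start are shown for Wnt11, which held a match, and for Nkd1 and Lef1, both lower at 10 than at 4 weeks in both genotypes. Capitals mark the match. The Wnt11 window lies at chr7:98834862-98835111 on the plus strand, the Nkd1 window at chr8:88527383-88527632 on the plus strand, and the Lef1 window at chr3:131110047-131110296 on the plus strand.
Wnt11: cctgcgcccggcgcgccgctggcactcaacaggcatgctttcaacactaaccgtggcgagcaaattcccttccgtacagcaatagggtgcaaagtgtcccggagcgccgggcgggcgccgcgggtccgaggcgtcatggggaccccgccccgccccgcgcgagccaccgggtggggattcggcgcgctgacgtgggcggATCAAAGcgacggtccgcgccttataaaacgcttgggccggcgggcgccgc
Nkd1: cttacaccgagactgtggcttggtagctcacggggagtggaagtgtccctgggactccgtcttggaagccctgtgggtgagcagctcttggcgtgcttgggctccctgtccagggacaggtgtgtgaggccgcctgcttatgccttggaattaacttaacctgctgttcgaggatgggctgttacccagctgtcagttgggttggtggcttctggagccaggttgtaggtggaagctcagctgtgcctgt
Lef1: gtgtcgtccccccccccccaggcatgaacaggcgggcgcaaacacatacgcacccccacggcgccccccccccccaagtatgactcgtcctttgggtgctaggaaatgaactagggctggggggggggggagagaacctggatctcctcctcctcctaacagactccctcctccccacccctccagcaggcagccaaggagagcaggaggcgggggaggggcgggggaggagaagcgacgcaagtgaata
ATCAAAG stood on the gene's own strand in Wnt11, 44 bases before the start. Of the 13 windows, 1 other held a match: the third start of Wnt5b, at chr6:119449387-119449636 on the minus strand, has ATCAAAG on the opposite strand, 64 bases before the start. That stretch reads as follows.
Wnt5b: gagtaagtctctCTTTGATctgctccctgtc
Either motif was present in 7.48% of 32851 such windows of all genes. No window of Axin2, Lef1, Nkd1, Nkd2 or Wnt10b held these letters. The data hold no measure of binding, and the matches are given as a description.

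At 10 weeks the knockout was compared with WT to ask which Wnt transcripts of the older tissue differ without Mkx. All 5 ligands lay below 0, with a median of -0.42 (Wnt10b reached 0.00 under one alternative setting), while the median of the 5 targets was 0.01. Wnt5b and Wnt10b were within 1 technical error of 0. Of 6 other Wnt ligands measured at this age, 3 lay above 0 and 3 below. None of the 10 genes was called, against 2.41% of 16457 genes at 2-fold in either direction (1.04% higher, 1.37% lower). Of all genes called, 43.2% were higher, and 31.3% with local brightness subtracted. Under normexp the number of genes called was 150 in place of 396. By the wider measure of more than 2 technical errors, 3 ligands were lower and no gene was higher; 6.93% of all genes were lower and 7.39% higher by that measure. The median over all genes was 0.01 and that of the 10 genes -0.10.

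Wnt5a, a ligand of cell polarity and movement, had processed signals at 10 weeks of 2521 (WT) and 1381 (Mkx-KO), and at 4 weeks of 2038 (WT) and 2446 (Mkx-KO). The Mkx-KO array at 10 weeks was the low one of the 4. The 10-week difference was -0.62 (technical error 0.20), so that the knockout was at 65.2% of WT. It was the one member past 1.5-fold there, as were 8.92% of all genes. The dimmer probe of Wnt5a, with signals between 40.5 and 56.5, gave 0.22 in the same comparison. The probes of Wnt5a thus disagreed in direction at 10 weeks, and averaging them brought the difference to -0.20.

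Wnt11, a ligand of convergent cell movements, had signals at 10 weeks of 174 (WT) and 100.2 (Mkx-KO), and at 4 weeks of 171 (WT) and 239 (Mkx-KO). Again Mkx-KO at 10 weeks was lowest, and Mkx-KO at 4 weeks was highest. The 10-week difference was -0.54 (technical error 0.21), and its other probe gave -0.24. Wnt10a, the tooth-related ligand, had signals at 10 weeks of 2236 (WT) and 1400 (Mkx-KO). Those at 4 weeks were 2632 (WT) and 3760 (Mkx-KO), so its order was the same as that of Wnt11 at both ages. The Wnt10a difference at 10 weeks was -0.42 (technical error 0.20), measured by a single probe.

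The other ligands were closer between genotypes. Wnt5b, a relative of Wnt5a active in cartilage, had signals of 4362 (WT) and 3459 (Mkx-KO), which differ by -0.08 once the arrays were scaled. Wnt10b, a ligand that favours bone over fat formation, had signals of 299.5 (WT) and 239 (Mkx-KO), which differ by -0.07. Both lay within 1 technical error of 0.20. The targets were also close at 10 weeks: Axin2 differed by -0.12, Lef1 by -0.12, Nkd1 by 0.01, Nkd2 by 0.07 and Notum by 0.18. Their technical errors were 0.20 to 0.23.

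**Figure D1:**
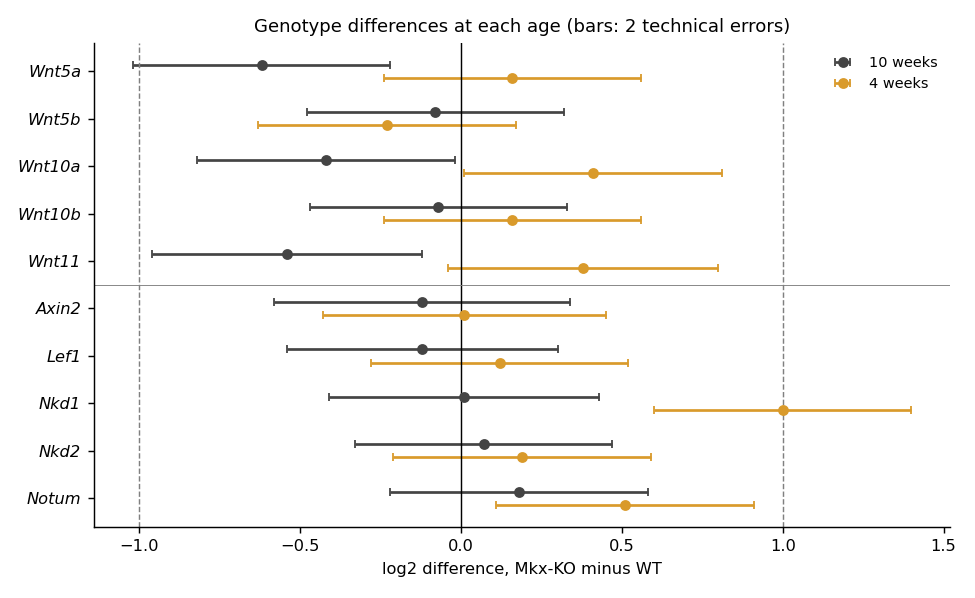
Log2 differences, Mkx-KO minus WT, of the 10 genes at 10 weeks (dark) and 4 weeks (yellow), from 1 array per group; bars span 2 technical errors on each side and dashed lines mark 2-fold. Wnt5a, Wnt10a and Wnt11 lie left of 0 at 10 weeks, and Nkd1 reaches 1.0 at 4 weeks.

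At 4 weeks most of the genes lay above 0, where Nkd1, Nkd2 and Notum had also been at 10 weeks. Of the 10 genes, 9 lay above 0 in Mkx-KO and 1, Wnt5b at -0.23, below. Axin2, at 0.01, lay between -0.05 and 0.12 over the alternative settings. Most genes of the array lay above 0 too, since 57.6% of all genes had a higher difference than Axin2. Nkd1 was called as higher, 1 gene of 10, where 0.472% of 15686 genes were called as higher (3.31% lower, 3.78% in either direction). More than 2 technical errors separated 3 of the genes, all higher (Wnt10a, Nkd1 and Notum), against 6.86% of all genes higher and 8.99% lower. The median was 0.17 for the 10 genes and 0.06 for all genes.

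Nkd1 encodes Naked cuticle 1, which binds Dishevelled and dampens Wnt signals. Its single probe gave signals at 4 weeks of 385 (WT) and 829 (Mkx-KO), and at 10 weeks of 163 (WT) and 138 (Mkx-KO). The 4-week Mkx-KO array thus stood above the rest, and both 10-week arrays were low. The genotype difference at 4 weeks was 1.0 (technical error 0.20), at the 2-fold threshold, and it lay between 0.91 and 1.07 over the alternative settings. Under normexp (another background correction), quantile scaling or the 75th percentile taken over spots it fell short of 2-fold, which leaves 0 genes called. Of all genes measured at 4 weeks, 0.465% had a higher difference than Nkd1.

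Notum encodes a secreted enzyme that strips the lipid from Wnt proteins. Its signals at 4 weeks were 1676 (WT) and 2562 (Mkx-KO), and those at 10 weeks were 897 (WT) and 856 (Mkx-KO). The 4-week difference was 0.51 (technical error 0.20). Its other probe gave 0.35. Wnt10a differed by 0.41 (technical error 0.20), and Wnt11 by 0.38 (0.21). Both ligands therefore pointed up at 4 weeks and down at 10 weeks. The remaining differences at 4 weeks were within 1 technical error: Wnt5a 0.16, Wnt10b 0.16, Axin2 0.01, Lef1 0.12 and Nkd2 0.19. Wnt5b, at -0.23, exceeded its error of 0.20 slightly.

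A below-0 value at 10 weeks with an above-0 value at 4 weeks is common on these arrays, at 29.8% of 15504 genes. Opposite signs with each difference above 2 technical errors were rarer, at 3.91% of genes, and Wnt10a was the 1 gene of the 10 that met this. The change of the genotype difference between ages was 0.99 for Nkd1, 0.92 for Wnt11, 0.83 for Wnt10a and 0.78 for Wnt5a, with a technical error of 0.29. The other probe of Wnt11 gave 0.55 for this change (technical error 0.31). That of Wnt5a gave -0.15 (technical error 0.34), so the probes of Wnt5a disagreed in direction. No test of that change over animals can be made with 1 array per group. Epithelial markers moved in the same directions: 9 of 10 were lower in Mkx-KO at 10 weeks by more than 2 technical errors (median -0.80), and 6 of 10 higher at 4 weeks (median 0.61). Krt14, a keratin of basal epithelium, differed by -0.83 and 0.74. At 10 weeks all 6 B cell markers were higher in Mkx-KO by more than 2 technical errors (median 1.16), and at 4 weeks 3 were higher and 3 lower. At 4 weeks nasal markers (median -6.92) and muscle markers (median -1.26) were lower in Mkx-KO. Of the odontoblast and ameloblast markers, 6 of 7 measured lay above 0 in Mkx-KO at 4 weeks (median 0.19). The exception was the enamel matrix gene Amelx, at -6.66. Enam, not well above background on the 4-week Mkx-KO array, was at least 18.3-fold lower there. The part of these markers in the Wnt differences was not tested.

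**Figure D2:**
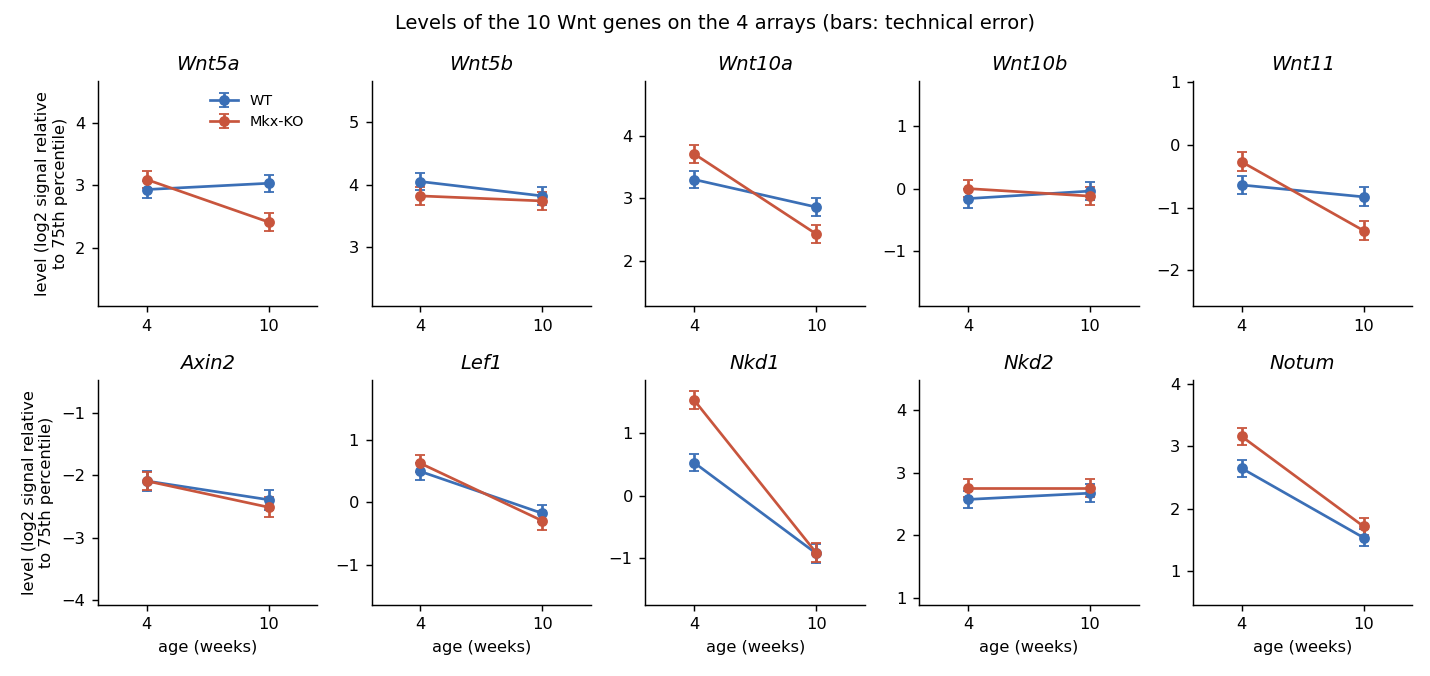
Levels of the 10 genes (log2 processed signal relative to the array's 75th percentile) at 4 and 10 weeks in WT (blue) and Mkx-KO (red), 1 array per point, with the technical error as bars; every panel spans the same number of log2 units. Nkd1 and Notum are lower at 10 than at 4 weeks in both genotypes, and the lines of Wnt10a and Wnt11 cross.

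The comparison of 10 with 4 weeks addressed how the same transcripts differ with age in each genotype. These comparisons share their arrays with the genotype comparisons above. In WT, 2 of the 10 genes were called, both lower at 10 weeks (Nkd1 and Notum), where 3.83% of 16102 genes were called as lower, 5.01% as higher and 8.84% in either direction. In Mkx-KO, 4 were called, all lower (Wnt10a, Wnt11, Nkd1 and Notum), where 3.84% of 15669 genes were called as lower, 6.25% as higher and 10.1% in either direction. By more than 2 technical errors, 4 genes were lower in WT (20.9% of all genes) and 6 in Mkx-KO (26.0%), and none was higher (14.1% and 15.4% of all genes were). Of all genes called in WT, 56.6% were higher at 10 weeks, and this share was 82.9% with the deposited values as given and 68.9% with local brightness subtracted. In Mkx-KO it was 61.9%, and 85.4% with the deposited values as given. With those values Notum in WT (-0.76), and Wnt10a (-0.99) and Wnt11 (-0.82) in Mkx-KO, were no longer called; in WT Notum also lost its call with local brightness subtracted (-0.92) and with the mean over probes (-0.89). Wnt11 in Mkx-KO also lost its call under normexp (-0.75), with local brightness subtracted (-0.97) and with the mean over probes (-0.96).

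Nkd1 had the widest spread over the 4 arrays of the 10 genes, 2.45 log2 units. At 10 weeks it stood at 36.6% of its 4-week level in WT, a difference of -1.45 (technical error 0.21). In Mkx-KO it stood at 18.4%, a difference of -2.44. Of all genes, 1.66% had a lower difference in WT and 0.134% in Mkx-KO. Notum spanned 1.62 log2 units and was at 46.2% of its 4-week level in WT (difference -1.11) and at 36.9% in Mkx-KO (-1.44). Its other probe gave -0.66 and -1.03. Being at least 2-fold lower in both genotypes was found for 200 of 15504 genes, or 1.29%, and Nkd1 and Notum were 2 of the 10 genes here.

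Lef1, the DNA-binding partner of beta-catenin and itself a target, had signals at 4 weeks of 375 (WT) and 439 (Mkx-KO), and at 10 weeks of 273 (WT) and 211 (Mkx-KO). Both 4-week arrays were thus above both 10-week arrays. Its differences were -0.67 in WT and -0.92 in Mkx-KO, short of 2-fold. Axin2, a scaffold of the beta-catenin destruction complex and a widely used target gene, was dim, with signals at 10 weeks of 58.9 (WT) and 45.6 (Mkx-KO), and at 4 weeks of 62.5 (WT) and 67.6 (Mkx-KO). It differed by -0.30 in WT and -0.42 in Mkx-KO, under 2 technical errors of 0.22. Nkd2, the relative of Nkd1, read between 1581 and 1970 and differed by 0.10 and -0.01. The Nkd genes thus differed in their age pattern on these arrays, although a second probe of Nkd2 gave -0.36 and -0.48.

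Among the ligands, Wnt10a was lower at 10 weeks by -0.45 in WT and -1.28 in Mkx-KO, and Wnt11 differed by -0.19 and -1.11. The Wnt11 value in WT was within its technical error of 0.21. Over the alternative settings the WT values lay between -0.45 and -0.09 for Wnt10a and between -0.22 and 0.17 for Wnt11. Wnt10a in Mkx-KO stood at 41.2% of its 4-week level and Wnt11 at 46.4%, while its other probe gave -0.81. Wnt5a differed by 0.09 in WT and -0.68 in Mkx-KO. Its dimmer probe gave -0.49 and -0.34, so its probes disagreed in direction in WT. Wnt5b differed by -0.23 and -0.08, and Wnt10b by 0.12 and -0.12. The median of the 10 genes was -0.27 in WT and -0.80 in Mkx-KO, and that of all genes -0.10 and -0.15.

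Most markers of odontoblasts and ameloblasts, the cells that make dentin and enamel, were lower at 10 weeks too: 6 of 7 measured were at least 2-fold lower in WT (median -1.63) and 5 of 7 in Mkx-KO (median -3.01). Others went the other way, with Odam at 1.52 in WT, and in Mkx-KO Amelx at 4.71 and Enam at least 6.08-fold higher at 10 weeks. Their summed level at 4 weeks was 56.8 (WT) and 30.3 (Mkx-KO), and at 10 weeks 34.4 (WT) and 19.7 (Mkx-KO). Osteoblast and cementoblast markers had medians of -0.23 and -0.24, with members on both sides of 0. In WT 3 of 9 were at least 2-fold lower at 10 weeks (Ibsp at -2.26 among them), and the summed level was 674 at 4 and 363 at 10 weeks. In Mkx-KO Mepe, an osteocyte matrix gene, was higher at 10 weeks at 2.69, and the summed level was 445 at 4 and 486 at 10 weeks. All 6 B cell markers lay below 0 with age in WT (median -1.02), and 3 of 6 in Mkx-KO (median 0.17). Epithelial markers had a median of 1.25 in WT, where 9 of 10 were higher at 10 weeks by more than 2 technical errors. In Mkx-KO their median was -0.30, with 3 higher (Cdh1 at 0.75 and Epcam at 0.94 among them) and 4 lower by that measure. Nasal markers had a median of 7.75 in Mkx-KO, where 6 of 8 measured were at least 2-fold higher at 10 weeks, and of 0.57 in WT (4 of 9). Skeletal muscle markers had a median of 2.01 in Mkx-KO (7 of 8 at least 2-fold higher) and of 0.18 in WT (2 of 8). The part of these markers in the age differences was not tested.

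**Figure D3:**
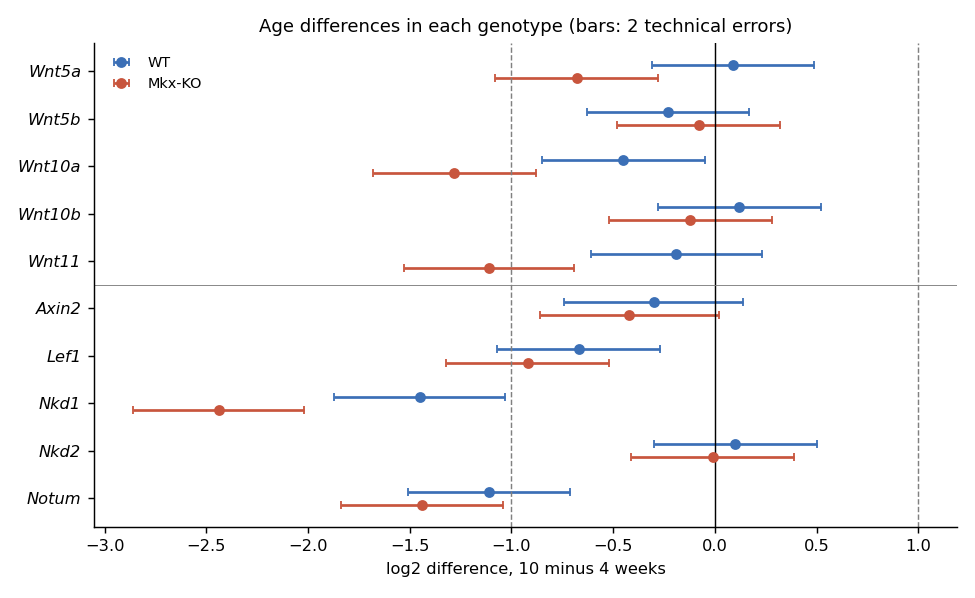
Log2 differences, 10 minus 4 weeks, of the 10 genes in WT (blue) and Mkx-KO (red), from 1 array per group; bars span 2 technical errors on each side and dashed lines mark 2-fold. Nkd1 lies at -1.45 and -2.44 and Notum at -1.11 and -1.44, while Nkd2 and Wnt10b lie near 0.

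A limma model with genotype and age as additive terms used all 4 arrays and 16795 genes, and it left 1 residual degree of freedom. That residual is how far the age difference departs between the genotypes, pooled over genes by limma. The SE, interval and p values of this fit therefore do not measure spread between animals. A gene that misses the threshold in so small a fit is not shown to be equal between groups. For age, no gene passed an adjusted p of 0.05 (Benjamini-Hochberg), and 24.3% of genes had an unadjusted p under 0.05 (14.2% with lower levels at 10 weeks). Notum differed by -1.28 (SE 0.16, limma adjusted p = 0.176), Nkd1 by -1.95 (SE 0.32, limma adjusted p = 0.176) and Lef1 by -0.79 (SE 0.15, limma adjusted p = 0.176). These 3 had unadjusted p under 0.05, and each was lower at 10 weeks in 2 of 2 genotypes. For genotype no gene passed either, with 2.71% at an unadjusted p under 0.05 and none of the 10 genes among them. The genotype value of Nkd1 over both ages was 0.51 with a 95% interval from -0.56 to 1.58. The interval of Wnt10a, whose differences at the ages oppose each other, ran from -0.93 to 0.92. Mkx differed by -1.88 (SE 0.18) with a limma adjusted p of 1.

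The rest of the pathway was read from 91 further genes in 8 lists. At 10 weeks 81 of them were measured, of which 1 was called lower in Mkx-KO and 0 higher, with a median of -0.12; of all genes, 1.37% were lower and 1.04% higher. The one called was Sp5, a transcription factor and direct target, at -1.0 (technical error 0.33). It was dim, with signals of 37.7 (WT) and 15.8 (Mkx-KO), and its difference lay at the 2-fold threshold. At 4 weeks 79 were measured, of which 1 was called higher and 3 lower, with a median of 0.11; of all genes, 0.472% were higher and 3.31% lower. Sostdc1, a secreted Wnt and BMP antagonist of the tooth, was higher at 1.29, with signals of 143 (WT) and 376 (Mkx-KO). Rspo3, a secreted enhancer of Wnt signals, was lower at -1.13 (-0.94 at 10 weeks), and the secreted inhibitor Dkk1 at -1.11 (0.22 at 10 weeks). The polarity gene Celsr3 was lower at -2.20 by its brightest probe, but its 3 probes ranged from -2.20 to -0.13. Sost, the inhibitor made by osteocytes, was not well above background in Mkx-KO at 4 weeks and was at least 3.17-fold lower there than in WT.

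With age, of 79 pathway genes measured in each genotype, 3 were called higher and 0 lower in WT, where 5.01% and 3.83% of all genes were. In Mkx-KO 3 were called higher and 6 lower, where 6.25% and 3.84% of all genes were. The WT genes were the receptor Ror1 (1.06), Rspo3 (1.15) and the secreted modulator Sfrp5 (1.17). Rspo3 and Sfrp5 were also higher in Mkx-KO, at 1.35 and 1.32, as was Celsr3 at 2.49 by a probe that disagreed with the others. The lower genes in Mkx-KO were the receptors Fzd2 (-1.58) and Fzd9 (-1.28), the pseudoreceptor Bambi (-1.33), the Dishevelled partner Dact1 (-1.09), the polarity gene Vangl1 (-1.11) and Sostdc1 (-2.01). The other probe of Vangl1 gave -0.14. Wnt7a, an epithelial ligand, was well above background at 4 weeks only and was at least 3.67-fold lower at 10 weeks in WT and at least 3.69-fold in Mkx-KO. Sost was at least 6.69-fold higher at 10 weeks in Mkx-KO, and Sp5 at least 2.59-fold higher in WT. None of the 10 genes of the cytoplasmic relay was called in any comparison; Ctnnb1, the gene of beta-catenin, named after its values were seen, differed by -0.06, 0.00, -0.08 and -0.14. The Wnt9b probe lay in a bright patch of the 4-week Mkx-KO array (local brightness 0.84), and its bound of at least 82.8-fold higher there is given with that limit.

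**Figure D4:**
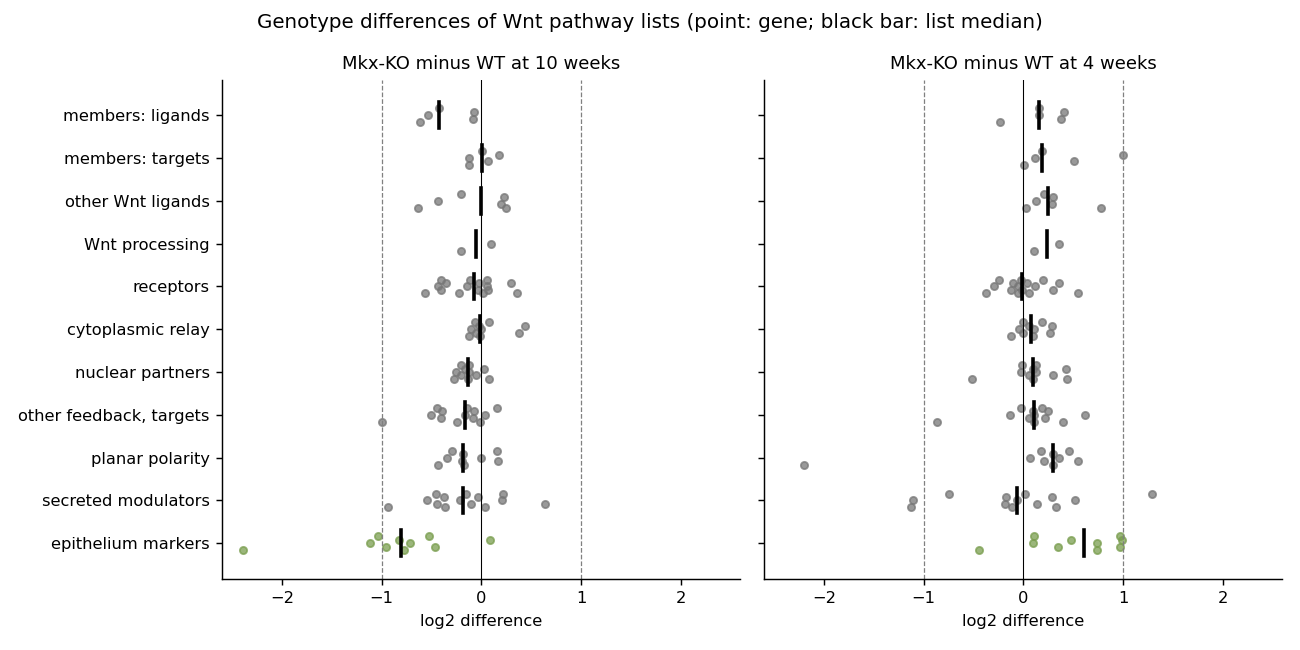
Log2 differences, Mkx-KO minus WT, at 10 weeks (left) and 4 weeks (right) for the measured genes of each Wnt list and for epithelial markers (green); each point is a gene, black bars are list medians and dashed lines mark 2-fold. Epithelial markers have a median of -0.80 at 10 weeks and 0.61 at 4 weeks, and the 5 ligands of -0.42 and 0.16.

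The genes nearest to the widest-spread members were found by the distance between the 4 levels after centring each gene on its mean, over 15504 genes. For Nkd1 the nearest was Gm17660 at a distance of 0.12, and 5 genes lay within 0.2. For Notum it was Nfil3, a transcription factor, at 0.091, with 46 genes within 0.2. For Wnt10a it was the pseudogene Bambi-ps1 at 0.032, with 30 genes within 0.2, and for Wnt11 it was the collagen gene Col23a1 at 0.049, with 23. Wnt10a and Wnt11 were each other's nearest among the 10 genes, at 0.23. With 4 arrays, such likeness is a description of these preparations.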

How the data were processed

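RNA of 4 mouse PDL preparations was read on one-colour Agilent arrays. The deposited scan files hold spot intensity on a linear scale, which Agilent Feature Extraction 11.5.1.1 background-subtracted and detrended, per the file headers. The deposited series table holds intensity equal to that signal times 1 factor per array (1.54 to 2.08), whose origin is not given in the sources used here. Probes were named by RefSeq accession (32994 of 56605 matched). Outlier spots were left out where a probe had another spot that was not an outlier, and kept otherwise. The log2 signal minus the 75th percentile over an array's non-control probes, taken with all their spots, was used. Arrays give no depth, and their number limits the precision.

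Genotype at each age and age in each genotype were compared by difference, without p-values. limma 3.58.1 (R 4.3.3) fitted both factors; on simulated data it missed differences of the size reported here. The remaining work ran in Python 3.11.15 with pandas 2.3.3, numpy 2.4.6 and matplotlib 3.10.9. The members and lists were chosen with earlier results of these data known. The text names all members and Mkx, up to 4 called genes per pathway list, genes with a bound of at least 2-fold, up to 3 markers per list, and the nearest gene of members spanning at least 1 log2 unit. Alternatives were normexp (offset 50, on median spot and background signals, since mean signals were not used here), quantile scaling, median centring, the deposited table, the mean over probes, local brightness, a 1.5-fold threshold, other limma fits and, chosen after seeing the data, the percentile over spots.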

Additional observations from a re-analysis of the deposited data

Results flagged for a closer look

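The 10 members and 91 further pathway genes were screened where well above background on all 4 arrays. In 4 of them the genotype difference, Mkx-KO minus WT, lay below 0 at 10 weeks and above 0 at 4 weeks. Each value was more than 2 technical errors from 0. By that measure 3.91% of all genes had opposite signs, so 4 genes from lists of this length is near the share of all genes. Wnt10a differed by -0.42 at 10 weeks and 0.41 at 4 weeks. Wnt4, a ligand also made by epithelia, differed by -0.64 and 0.78. The secreted inhibitor Sfrp1 differed by -0.45 and 0.52, and Sostdc1 by -0.46 and 1.29. Wnt4 and Sfrp1 were named after their values were seen. Wnt4 also differed with age in opposite directions, 0.92 in WT and -0.50 in Mkx-KO. With 1 array per group, none of these differences between groups was tested. Epithelial markers had genotype medians of -0.80 and 0.61 at those ages, and their part in these values was not tested.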

How the results depend on the processing

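With 1 array per group the limits are those of single preparations, and no replicate could be left out. No paired analysis was possible because each group has a single array. Of 320 member differences recomputed under the alternatives, 282 stayed within 1 technical error, 38 moved further, 26 changed sign and 0 of the called ones changed sign. The 282 include values that could not move. The deposited values scaled to their 75th percentile repeat the main signal, which differs from them by 1 factor per array. For Wnt10a, Lef1 and Nkd1, each with a single probe, the mean over probes is the main value. At 10 weeks a 1.5-fold threshold called 1 gene (Wnt5a). At 4 weeks normexp, quantile scaling and the percentile over spots (chosen after seeing the data) each called 0. In WT, age called 1 gene (Nkd1) with the deposited values as given, with local brightness subtracted and with the mean over probes. In Mkx-KO, age called 2 genes (Nkd1 and Notum) with the deposited values as given, which shift age differences of all genes by 0.36 in WT and 0.29 in Mkx-KO. The cause was not tested beyond that shift. In Mkx-KO, age called 3 genes, without Wnt11, under normexp, with local brightness subtracted and with the mean over probes. The genes called in the whole table numbered fewer under normexp: 150 for 396 and 259 for 593 by genotype at 10 and 4 weeks, and 705 for 1423 and 815 for 1581 by age in WT and Mkx-KO. With a probe well above background on at least 1 array of the pair, they numbered 618 and 1233 by genotype and 2527 by age in Mkx-KO. In the limma fits, genotype values turned sign under normexp for Wnt10a (0.00), Wnt11 (0.03) and Axin2 (0.01). Age values turned sign for Wnt5b under quantile scaling (0.05), for Wnt5a (0.03) and Wnt5b (0.16) with the deposited values as given, and for Nkd2 with the mean over probes (-0.19). No member passed an adjusted p of 0.05 in any limma fit; for age, 31 genes of the whole table did under normexp and 5 with age as the only term.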
